A study of Mus musculus with 48 samples.

Results

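The 10 genes described here mark astrocytes or their reactive state: Gfap, Vim, Serpina3n, Lcn2, Cd44, Osmr, Aqp4, Slc1a2, Slc1a3 and S100a10. They were taken from 18193 genes that had at least 1 probe set with a single gene symbol on Affymetrix mouse expression arrays, where the signals of several oligonucleotides against a transcript are summarised as 1 probe set. The 10 genes held 32 such probe sets, and each gene was read from the one with the highest mean over all 48 arrays. Each array measured hippocampal RNA of 1 adult male C57BL/6J mouse. Mice given chronic intermittent ethanol (CIE) went through 4 cycles of vapor chamber and withdrawal, with 16 h of ethanol vapor (10 to 13 mg per liter of air) on each of 4 days and then 7 days without ethanol, and received 1.6 g/kg ethanol and 1 mmol/kg pyrazole, which blocks alcohol dehydrogenase, ahead of each cycle. Control (Ctrl) mice breathed air in the same kind of chamber and received saline in place of ethanol, and they received pyrazole too, so pyrazole was common to all groups. Hippocampi of 6 mice for each treatment were collected at each of 4 times, 0 h, 8 h, 72 h and 7 d from the end of vapor. All levels below are log2 units after robust multi-array averaging (RMA), and errors of group means are SDs over mice.

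Astrocytes clear glutamate and potassium from the space around synapses, move water at the vessel wall and supply neurons with metabolites. Slc1a2 (GLT-1) and Slc1a3 (GLAST) are their glutamate transporters, and Aqp4 is the water channel of the endfeet on blood vessels. After injury or inflammation astrocytes become reactive: they make more of the intermediate filament proteins encoded by Gfap and Vim, the acute phase protease inhibitor of Serpina3n, the secreted lipocalin of Lcn2, the hyaluronan receptor of Cd44, the oncostatin M receptor of Osmr, which signals through STAT3, and the annexin A2 partner of S100a10. In whole hippocampus, a change in the number of astrocytes and a change in the RNA of each astrocyte cannot be told apart.

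Promoter sequences are shown for the 5 genes that passed the test with all mice in at least 1 comparison below. Aqp4, which passed only in alternative fits, is not shown. RefSeq (GRCm38.p6) gave the 250 bases before the start site of 8 of the 10 genes. These were searched on both strands for TTCNNNGAA (the STAT site), GNACA and TGTNC separated by any 3 bases (a glucocorticoid receptor site) and GGG and TTTCC separated by any 2 bases (an NF-kB site), and any overlap of matches was allowed. The letters occurred in 7.02%, 0.387% and 1.41% of 32851 promoter windows of the same length. Capitals mark the matches.
Lcn2 (chr2:32387740-32387989, minus strand): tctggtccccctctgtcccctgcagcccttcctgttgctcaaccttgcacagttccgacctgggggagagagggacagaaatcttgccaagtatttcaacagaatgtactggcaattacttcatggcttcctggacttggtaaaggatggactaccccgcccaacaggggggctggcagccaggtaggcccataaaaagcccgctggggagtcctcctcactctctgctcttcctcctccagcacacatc
Slc1a2 (chr2:102706188-102706437, plus strand): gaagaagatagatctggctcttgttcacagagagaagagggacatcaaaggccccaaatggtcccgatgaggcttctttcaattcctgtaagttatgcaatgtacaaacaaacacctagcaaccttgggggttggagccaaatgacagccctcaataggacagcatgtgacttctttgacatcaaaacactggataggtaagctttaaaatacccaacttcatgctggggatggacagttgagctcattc
Serpina3n (chr12:104406458-104406707, plus strand): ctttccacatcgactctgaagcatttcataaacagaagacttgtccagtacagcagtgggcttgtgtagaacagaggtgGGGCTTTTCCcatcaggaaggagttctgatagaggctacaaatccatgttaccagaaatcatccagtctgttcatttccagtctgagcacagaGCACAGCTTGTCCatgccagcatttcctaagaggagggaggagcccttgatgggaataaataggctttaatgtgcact
Osmr (chr15:6874314-6874563, minus strand): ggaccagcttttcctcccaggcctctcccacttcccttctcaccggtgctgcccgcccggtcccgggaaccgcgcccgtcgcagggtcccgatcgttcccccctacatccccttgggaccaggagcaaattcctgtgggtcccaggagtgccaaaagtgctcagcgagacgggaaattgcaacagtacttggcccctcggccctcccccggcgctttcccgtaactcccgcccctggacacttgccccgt
Slc1a3 (chr15:8710808-8711057, minus strand): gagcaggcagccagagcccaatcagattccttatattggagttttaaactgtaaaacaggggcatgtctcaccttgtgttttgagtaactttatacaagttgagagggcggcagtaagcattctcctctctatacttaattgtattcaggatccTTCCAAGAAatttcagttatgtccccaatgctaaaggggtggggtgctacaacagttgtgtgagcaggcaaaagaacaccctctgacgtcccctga
Serpina3n held a glucocorticoid receptor match, GCACAGCTTGTCC, that began 78 bases before the start, and an NF-kB match, GGGCTTTTCC, that began 171 bases before it. Slc1a3 held a STAT match, TTCCAAGAA, 96 bases before the start. Lcn2, Slc1a2 and Osmr held none of these letters in the window. Of the searched genes not shown, Vim held an NF-kB match, GGAAAGCCCC, that began 223 bases before the start, and Gfap and Cd44 held none. A match is a description of the sequence and not of binding.

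Ctrl mice 18 and 22 at 7 d went against the hippocampal label. Of 8 markers of hippocampal neurons, 5 were lower in both of these arrays than in any of the other 46. Wfs1, Prox1 and Zbtb20 were not. In mice 18 and 22 Wfs1 was 10.71 and 11.55, around the median of the other 46 (10.87). Prox1 was 7.16 and 7.41 against 7.06 to 10.31, and Zbtb20 was 11.46 and 11.76 against 11.59 to 12.42. Dsp, a marker of dentate granule cells, was 6.22 and 6.01 in mice 18 and 22 and 7.79 to 12.34 in the other 46, with a median of 11.54. Lct, likewise a dentate marker, was 6.31 and 6.01 against 9.07 to 11.68, and C1ql2, made by granule cells, was 6.13 and 6.25 against 6.80 to 10.93. Both arrays thus lacked the usual level of these dentate transcripts. Neuronal genes of the striatum, chosen after their values were seen, were higher: the dopamine receptor gene Drd1 was 10.18 and 10.49 against 6.74 to 9.27, and the orphan receptor gene Gpr6 was 8.53 and 8.80 against 4.60 to 7.16. The mean level of 8 oligodendrocyte markers was 11.30 and 11.61 against 10.35 to 11.18. Gfap was 8.83 and 8.77 in these mice and 10.25 to 11.37 in all others, so of the 10 genes it set them apart the most. Osmr, Serpina3n, Cd44 and Aqp4 were also lower in both than in any other array, while Vim, Lcn2, Slc1a2 and Slc1a3 were within the range of the rest. The CIE minus Ctrl differences of the 10 genes at 7 d are therefore given with and without these 2 mice. For other genes called at 7 d, in places only the loss of the call without them is given. Values elsewhere are with all mice unless stated. The part of tissue composition in those results was not tested.

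**Figure D1:**
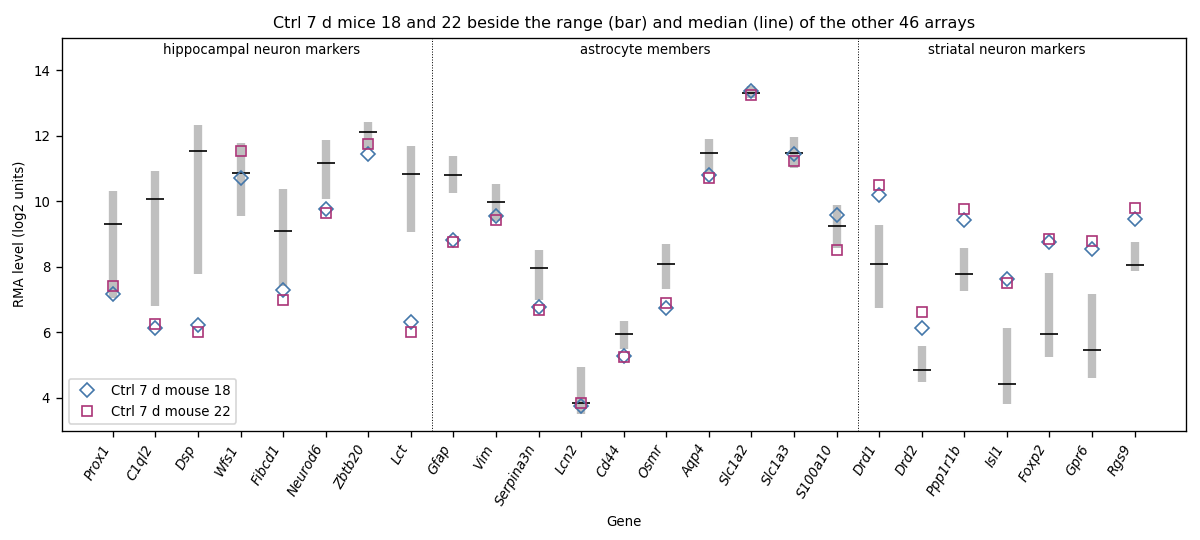
RMA level in log2 units of hippocampal neuron markers, the 10 astrocyte genes and striatal neuron markers. Grey bars span the other 46 arrays, with their median as a line, and open symbols are Ctrl mice 18 and 22 at 7 d, which lie below the bars for Dsp, Lct, C1ql2, Gfap, Osmr, Serpina3n, Cd44 and Aqp4 and above them for Drd1 and Gpr6.

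The span of the 8 group means of a gene ran from 0.20 for Slc1a2 (pooled SD between mice 0.073) to 1.16 for Osmr (pooled SD 0.31). A span of 8 means of 6 mice can exceed the pooled SD without any group effect, so it is a description only. Neighbours in the order were closer: when the 8 group means of each gene were put in order, only 4 of 70 neighbouring pairs differed by more than the larger of their SDs. Gfap means ran from 10.05 ± 0.97 in Ctrl mice at 7 d to 11.00 ± 0.26 in Ctrl mice at 8 h (SD, n = 6), and no neighbours in the order were apart beyond their spread. The Ctrl mean at 7 d was 10.68 without mice 18 and 22, above that of CIE mice at 72 h (10.57), which was then the lowest. Slc1a2 had the narrowest span of means, from 13.26 ± 0.06 in Ctrl to 13.46 ± 0.08 in CIE mice, both at 8 h. Lcn2 ranged from 3.49 to 4.94 over all 48 arrays, close to the lowest value of any probe set (2.72), and no detection call came with the values used here. In its order, CIE mice at 8 h (4.33 ± 0.35) stood above the next group, Ctrl mice at 0 h (3.91 ± 0.11), by more than the larger SD. Osmr was lowest in Ctrl mice at 7 d (7.27 ± 0.37), with a gap of 0.62 to CIE mice at 72 h (7.89 ± 0.28), and at 7.49 without the 2 mice. Aqp4 and Slc1a3 had their lowest means in CIE mice at 0 h (11.15 ± 0.18 and 11.28 ± 0.18) and their highest in CIE mice at 7 d (11.69 ± 0.13 and 11.69 ± 0.18).

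**Figure D2:**
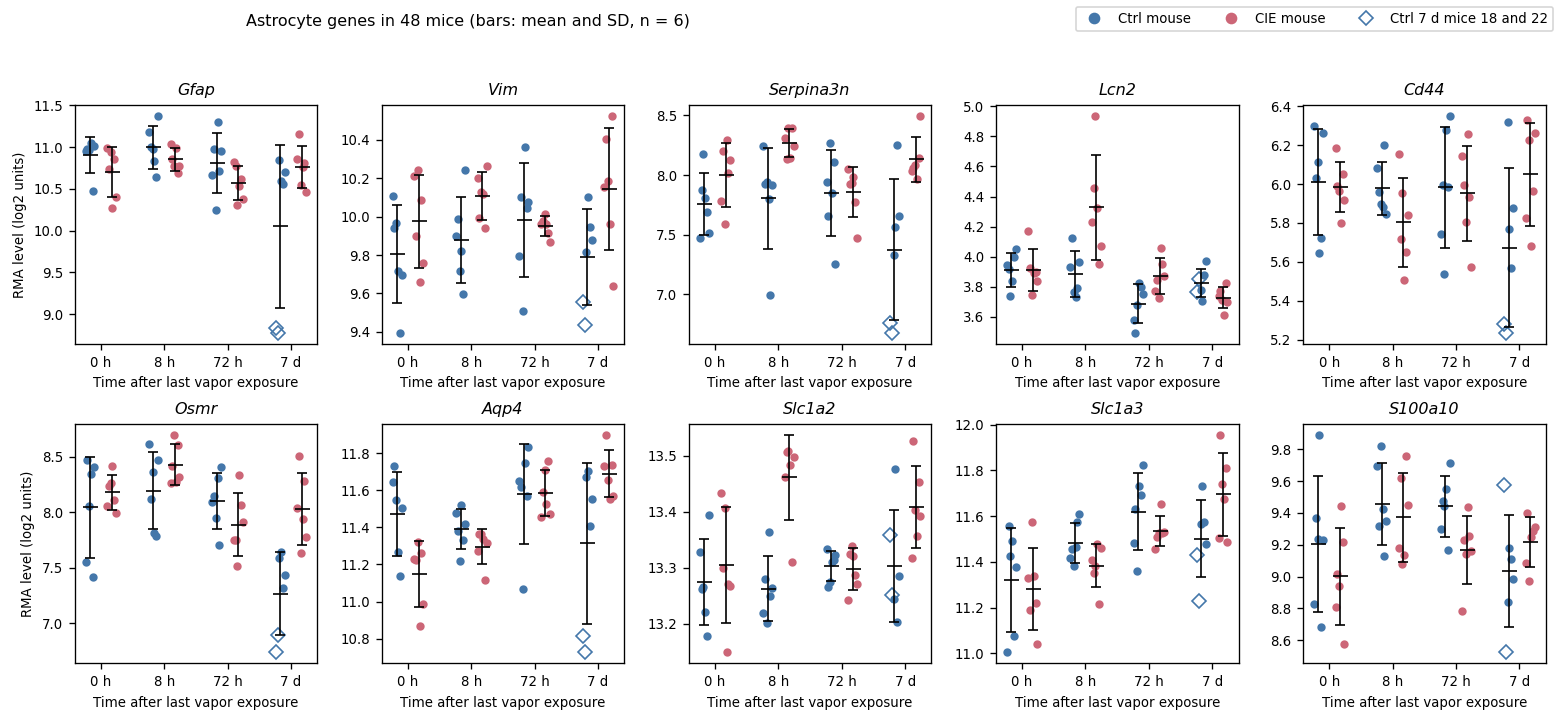
RMA level in log2 units of each gene in each mouse, by treatment and time after the last vapor exposure. Bars are group means and SDs of 6 mice, and open diamonds are Ctrl mice 18 and 22 at 7 d, whose Gfap levels of 8.83 and 8.77 lie below those of all other mice.

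At 8 h of withdrawal, Lcn2 and Slc1a2 were higher in CIE than in Ctrl mice, and these were the only calls among the 10 genes. With 2 of 10 genes called at a false discovery rate of 0.01, the share stood beside 2.29% of all 18193 genes. Lcn2, which encodes an iron-binding lipocalin released in inflammation, was 3.73 to 4.13 in Ctrl mice (median 3.86) and 3.95 to 4.94 in CIE mice (median 4.28). The groups overlapped, with CIE mice 41 (3.95) and 69 (4.07) inside the Ctrl range and CIE mouse 23 (4.94) far above it. The difference was 0.44 (95% confidence interval 0.25 to 0.63, limma adjusted p = 0.00255), near the floor of the scale, so no fold is given. It was positive in 6 of 6 hybridization sets. These are groups of arrays inferred from exactly equal values, each with 1 mouse of nearly every group, and no label names them as batches. Left out, CIE mouse 23 took the adjusted p to 0.0112, which does not pass, and when the 12 arrays of 8 h were fitted alone it was 0.0845.

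Slc1a2, the main glutamate transporter gene of astrocytes, was 13.20 to 13.36 in Ctrl mice (median 13.26) and 13.31 to 13.51 in CIE mice (median 13.49). All CIE mice but mouse 41 (13.31) lay above every Ctrl mouse. The difference was small, 0.20 (0.11 to 0.29, limma adjusted p = 0.00545) or 1.15-fold, and positive in 6 of 6 sets. With the mean over the gene's 5 probe sets it turned to -0.17. The call was lost without any 1 of 10 mice at 8 h, with adjusted p-values from 0.0104 to 0.0172. It was also lost with the hybridization sets as a block (0.0144) and in a fit of the 8 h arrays alone (0.0330). Slc1a3, the other astrocytic glutamate transporter, had a difference of -0.10 (adjusted p = 0.614) on its brightest probe set, while its other 5 probe sets were at 0.055 to 0.45, none called (adjusted p = 0.212 to 0.802).

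Serpina3n did not pass at 8 h, although CIE mice were within a narrow range. Ctrl mice were at 6.99 to 8.24 (median 7.92) and CIE mice at 8.14 to 8.39 (median 8.28). The difference was 0.47 (0.09 to 0.84, adjusted p = 0.150) and was positive in 6 of 6 sets, with the largest within-set value (1.40) in the set of Ctrl mouse 66, the lowest of its group. Vim was 0.23 higher in CIE mice (adjusted p = 0.370) and positive in 6 of 6 sets. The differences of Gfap, Cd44, Osmr, Aqp4 and S100a10 lay between -0.18 and 0.23, with both signs. The median over the 10 genes was 0.057, beside 0.0057 over all genes. With unadjusted limma p-values 3 of 10 genes were under 0.05, beside 18.4% of all genes.

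At 7 d, 9 of the 10 genes had a higher mean in CIE than in Ctrl mice, beside 61.3% of all genes with all mice. The count was also 9 without Ctrl mice 18 and 22, where the share of all genes was not counted. The sizes depended on these 2 mice. The 10 genes share arrays and tissue pieces, so the count is a description. One gene, Osmr, was called with all mice, beside 1.03% of all genes. The median difference of the 10 genes was 0.37 with all mice and 0.14 without the 2 mice, beside 0.028 and 0.018 over all genes. With unadjusted limma p-values, 8 of 10 genes were under 0.05 with all mice, beside 18.7% of all genes, and 3 of 10 without the 2, beside 13.7%. No gene was called without them, and neither was any other of the 18193 genes (0%).

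Osmr, the receptor subunit for oncostatin M, was 6.74 to 7.64 in Ctrl mice (median 7.37) and 7.63 to 8.51 in CIE mice (median 7.99). CIE mice were above Ctrl mice in 35 of 36 pairings. The difference was 0.76 (0.41 to 1.11, limma adjusted p = 0.00728), a 1.70-fold rise, and was positive in 6 of 6 sets. Without mice 18 and 22, the 4 other Ctrl mice were at 7.32 to 7.64 and CIE mice were above them in 23 of 24 pairings. The difference was then 0.54 (0.17 to 0.90, adjusted p = 0.139), and the call was not kept. With all mice it was also lost with the hybridization sets as a block (0.0142), in a fit of the 7 d arrays alone (0.0562), with the mean over probe sets (0.27, 0.0171) and without any 1 of 7 mice, among them Ctrl mouse 18 and Ctrl mouse 22, with adjusted p-values from 0.0102 to 0.0357.

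Serpina3n was 6.67 to 8.25 in Ctrl mice (median 7.44) and 7.97 to 8.50 in CIE mice (median 8.07). Its difference of 0.76 (0.38 to 1.13) was as large as that of Osmr and did not pass (limma adjusted p = 0.0119). Without mice 18 and 22 it was 0.43 (0.070 to 0.80, adjusted p = 0.236). One Ctrl mouse, 70, was at 8.25, above 5 of the CIE mice in the plot of levels by mouse.

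Gfap showed the strongest dependence on the 2 mice. Ctrl mice were at 8.77 to 10.85 (median 10.58) and CIE mice at 10.46 to 11.16 (median 10.78). The difference of 0.71 (0.24 to 1.18, limma adjusted p = 0.0572) became 0.088 (-0.22 to 0.40, adjusted p = 0.843) without mice 18 and 22. Cd44 went from 0.38 to 0.17, Aqp4 from 0.38 to 0.11, Vim from 0.36 to 0.21 and Slc1a3 from 0.19 to 0.11. None of these passed in either fit. Slc1a2 (0.11 in both fits), S100a10 (0.18 and 0.19) and Lcn2 (-0.097 and -0.11) moved little. The Slc1a2 value holds for its brightest probe set. Its other probe sets were at -0.62, -0.034, -0.28 and -0.73 without the 2 mice, none called.

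**Figure D3:**
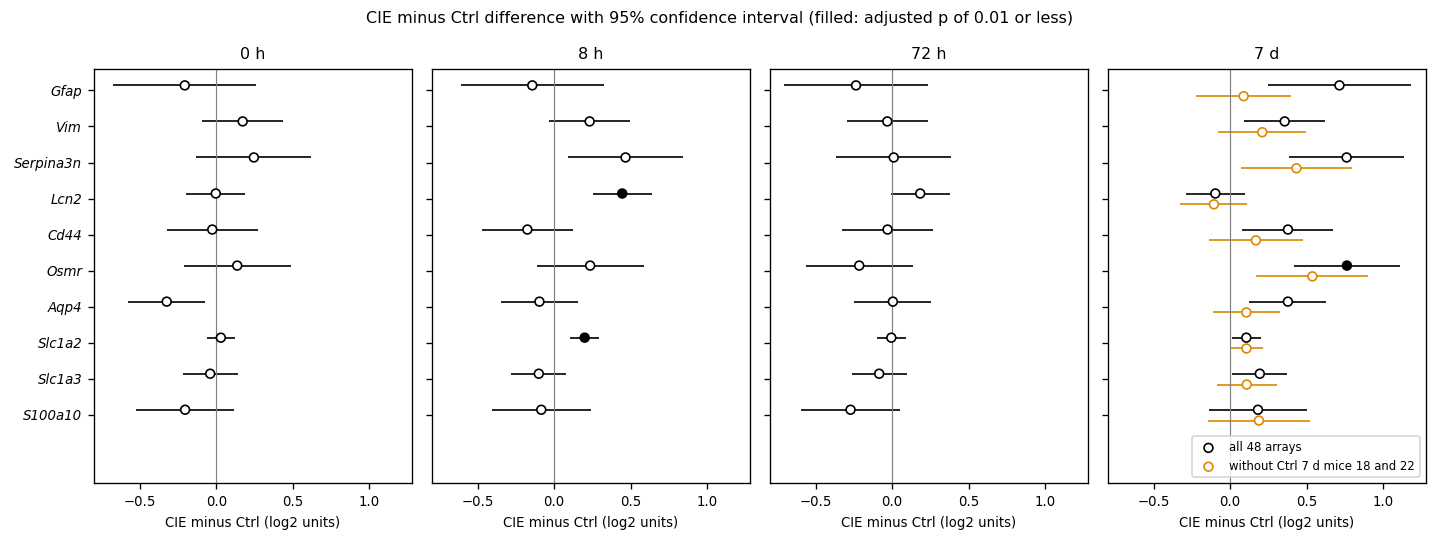
CIE minus Ctrl difference in log2 units for each gene at each time, with 95% confidence intervals, black for all 48 arrays and orange at 7 d for the fit without Ctrl mice 18 and 22. Filled circles passed the test: Lcn2 (0.44) and Slc1a2 (0.20) at 8 h and Osmr (0.76) at 7 d. The Gfap value at 7 d falls from 0.71 to 0.088 without the 2 mice.

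Directly after the last exposure (0 h) and at 72 h, none of the 10 genes was called by limma, beside 1.64% and 0.0055% of all genes. With unadjusted p-values, 1 gene was under 0.05 at 0 h and 0 at 72 h, beside 18.6% and 7.57% of all genes, and by the exact permutation test 1 at 0 h and 2 at 72 h. At 0 h the gene was Aqp4, which was 11.14 to 11.73 in Ctrl mice (median 11.53) and 10.87 to 11.32 in CIE mice (median 11.23). The difference was -0.32 (-0.58 to -0.07, limma adjusted p = 0.121), and 4 of the 5 sets that held both groups had the lower value in the CIE mouse. At 72 h, Lcn2 was 3.49 to 3.82 in Ctrl mice and 3.73 to 4.06 in CIE mice, a difference of 0.18 (adjusted p = 0.561) that was positive in 6 of 6 sets. S100a10 had a difference of -0.27 (adjusted p = 0.628). The other genes at these times had differences from -0.24 to 0.25, and none of the 10 genes had CIE and Ctrl groups without overlap at any time, beside 1.63%, 3.62%, 1.18% and 1.35% of all genes at 0 h, 8 h, 72 h and 7 d. In all, 40 exact permutation tests (10 genes at 4 times, smallest possible p = 0.00216, two-sided) gave 8 with unadjusted p under 0.05, and the lowest, for Osmr at 7 d and Slc1a2 at 8 h, were 0.00433. The counts were 1, 3, 2 and 2 of 10 genes at 0 h, 8 h, 72 h and 7 d, beside 14%, 20.1%, 12.3% and 14.4% of all genes. Without mice 18 and 22, the exact p at 7 d was 0.0190 for Osmr and 0.0476 for Serpina3n, the only 2 under 0.05 there, beside 10.8% of all genes.

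Taken over all 4 times in 1 F test, 4 genes differed between CIE and Ctrl mice, beside 6.23% of all genes. They were Lcn2 (limma adjusted p = 0.00488), Serpina3n (0.00735), Slc1a2 (0.00793) and Osmr (0.00963). Without mice 18 and 22, Lcn2 alone was called (0.00749), beside 5.23% of all genes, and none was when hybridization sets entered as a block, with adjusted p-values of 0.0178 to 0.0245 for these 4. The call was lost without any 1 of 34 of the 48 mice for Osmr, 18 for Slc1a2, 15 for Serpina3n and 4 for Lcn2. For the difference averaged over the times, Serpina3n (0.37, 95% confidence interval 0.18 to 0.56, adjusted p = 0.0034) and Slc1a2 (0.082, 0.036 to 0.13, 0.00898) were called, beside 7.9% of all genes. Neither was called without mice 18 and 22 (0.0122 and 0.0138), beside 6.91% of all genes, or with the sets as a block (0.0121 and 0.0168), and the Slc1a2 call was lost without any 1 of 34 mice (0.0103 to 0.0156). The change of the CIE effect from one time to another was tested in 6 comparisons, and 0 of 10 genes were called in each (limma), beside 0.033%, 0.0275% and 0.066% of all genes from 0 h to 8 h, 72 h and 7 d, 0.011% and 0.0715% from 8 h to 72 h and 7 d, and 0% from 72 h to 7 d. Between 0 and 7 genes had unadjusted p-values under 0.05 there, the 7 in the change from 72 h to 7 d, beside 10.1% of all genes, and 6 in the change from 8 h to 7 d, beside 12.4%. These counts were 2 without mice 18 and 22 (10.8% of all genes) and 1 (8.88%). Of these changes Lcn2 came closest: its CIE effect was 0.54 lower at 7 d than at 8 h (limma adjusted p = 0.0634, and 0.159 without the 2 mice).

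Within CIE mice, the levels of Aqp4 and Slc1a3 were higher at 7 d than at 0 h. These comparisons do not involve Ctrl mice, although all arrays shared the estimate of the spread. Harvest times, in CIE and in Ctrl mice, also differed in time since the chamber and the pyrazole injection. They could differ in hour of day too, and these parts cannot be told apart. Slc1a3 was 11.04 to 11.57 at 0 h and 11.49 to 11.95 at 7 d, a rise of 0.41 (0.23 to 0.59, limma adjusted p = 0.00506), and was the only gene of the 10 called, beside 1.16% of all genes. The call was kept without Ctrl mice 18 and 22 (0.0032) and lost without any 1 of 7 mice (0.0106 to 0.0260). It was also lost with the mean over the gene's probe sets. Aqp4 was 10.87 to 11.32 at 0 h and 11.55 to 11.90 at 7 d, so that all 36 pairings were higher at 7 d, and 2.16% of all genes likewise had groups without overlap. Its difference of 0.54 (0.29 to 0.79) had an adjusted p of 0.0106 and passed when mice 18 and 22 no longer entered the estimate of the spread (adjusted p = 0.000419, beside 1.46% of all genes called there). At 72 h, Aqp4 in CIE mice was 11.46 to 11.75, again above all CIE mice at 0 h in 36 of 36 pairings (3.42% of all genes had no overlap), with a difference of 0.44 (adjusted p = 0.0408 and, without the 2 mice, 0.005, beside 1.69% of all genes called there). At 72 h against 0 h in CIE mice 0 of 10 genes passed (limma), beside 1.38% of all genes, and 2 had unadjusted p under 0.05, beside 16.6%. From 0 h to 8 h in CIE mice, Lcn2 rose by 0.42 (limma adjusted p = 0.00404), 1 of 10 genes beside 2.95% of all genes, and the call was lost without any 1 of 4 mice (0.0111 to 0.0181) and with the sets as a block (0.0115).

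In Ctrl mice, later times against 0 h gave 0 of 10 calls at 8 h, 72 h and 7 d (limma), beside 0.456%, 0.445% and 0.264% of all genes, with 0, 2 and 5 genes at unadjusted p under 0.05, beside 17.4% of all genes at 72 h and 13.5% at 7 d (11.5% without mice 18 and 22). At 7 d against 0 h, Osmr was 0.77 lower (adjusted p = 0.0193) and Gfap 0.85 lower (0.0672). The differences without mice 18 and 22 were -0.55 (0.201) and -0.23 (not called), and 2 genes had unadjusted p under 0.05. Slc1a3 in Ctrl mice was 0.30 higher at 72 h than at 0 h (adjusted p = 0.0469) and 0.18 higher at 7 d (0.413, and 0.27 with 0.254 without the 2 mice). The comparisons of a time with 0 h share the mice of 0 h, and each CIE against Ctrl comparison shares mice with them.

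The choice of probe set mattered for Slc1a2. Of its 5 probe sets, 1438194_at had the highest mean (13.33) and is the one described above. Probe sets 1439940_at (mean 9.34) and 1459014_at (mean 5.99) were lower in CIE mice at all 4 times, by 0.48 to 1.04 and by 0.49 to 0.85. Averaged over times they fell by 0.75 (limma adjusted p = 0.00325) and by 0.67 (2.19e-05), while 1438194_at rose by 0.082. Probe set 1439940_at followed the mean of 7 probe sets of Malat1, a nuclear long noncoding RNA, closely (r = 0.91 over 48 arrays after group means were subtracted), against r = 0.36 for 1438194_at. Which transcripts each probe set reads was not tested. The r with Malat1 was 0.62 for 1433094_at, 0.46 for 1459014_at and 0.12 for 1451627_a_at. When the 5 were averaged, the difference over times was -0.32 (limma adjusted p = 0.00074). The direction thus depended on the probe sets used, and none is given for the gene as a whole. For Gfap, the other 2 probe sets followed the brightest one (r = 0.93 and 0.94) and gave 0.45 and 0.69 at 7 d with all mice, and -0.015 and 0.15 without mice 18 and 22. The other 2 probe sets of Osmr, at mean levels of 4.06 and 3.73, did not follow it (r = -0.058 and 0.14). Aqp4 probe set 1425382_a_at (mean 9.92) had r = 0.55 with the brightest one and 0.67 with the Malat1 mean. Its CIE minus Ctrl difference at 7 d without mice 18 and 22 was -0.22, against 0.11 for the brightest and 0.10 for 1447745_at. For Slc1a3, 1426341_at had r = 0.21 with the brightest probe set and 0.71 with the Malat1 mean. The other probe sets of Slc1a3 had r of 0.36 to 0.58 with the brightest. Serpina3n and Lcn2 had a single probe set each.

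**Figure D4:**
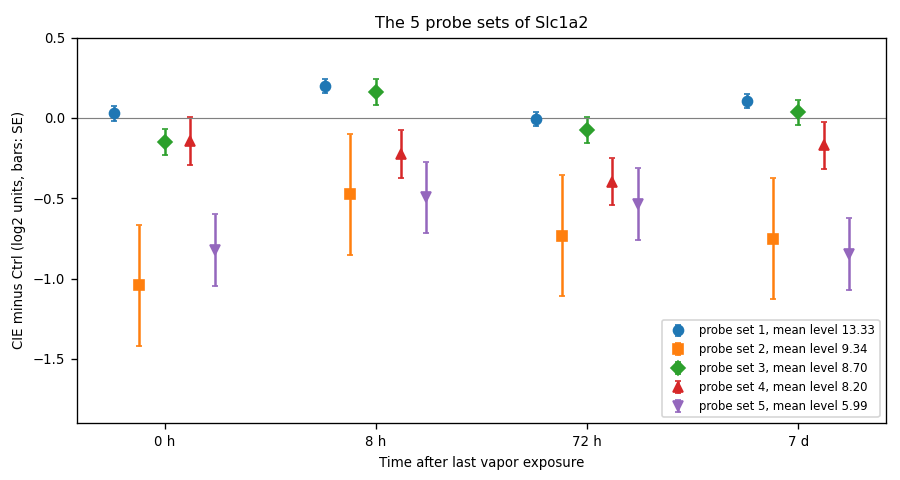
CIE minus Ctrl difference in log2 units (bars are SEs) at each time for the 5 probe sets of Slc1a2, ordered by mean level. The brightest (13.33) was 0.20 higher at 8 h, while the sets with mean levels of 9.34 and 5.99 lie below 0 at all 4 times.

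Genes related to the 10 were grouped in 11 lists. The 9 measured genes of the A1 list, induced in astrocytes by inflammation and rich in interferon-responsive genes, stood out at 8 h: 4 of 9 rose, beside 2.29% of all genes, and the median difference was 0.64, beside 0.0057 over all genes. The shares of all genes called at the other times, 1.64% at 0 h, 0.0055% at 72 h and 1.03% at 7 d, stand likewise beside the counts for every list below. The 4 were the class I histocompatibility gene H2-D1 (1.34, limma adjusted p = 0.000316), Iigp1 (1.63, 0.000636) and Gbp2 (1.42, 0.00171), GTPases made in response to interferon, and the immunoproteasome gene Psmb8 (1.10, 0.000992). These are interferon-response genes that other brain cells also express. At 0 h the median was 0.43 with 1 of 9 called (H2-D1, 1.07, adjusted p = 0.00523), and at 72 h it was 0.039 with 0 of 9. At 7 d it was 0.43, with Fbln5 called (0.72, 0.00838), and 0.23 with no call without mice 18 and 22.

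Of 7 pan-reactive genes, Cxcl10, an interferon-induced chemokine gene, rose at 8 h (1.38, limma adjusted p = 3.37e-06) and no other was called at any time. Of 11 A2 genes, described after ischemia, Emp1 alone was called, at 7 d with all mice (0.74, adjusted p = 0.00461) and not without the 2 (0.0756). Among 15 genes of the IL-6 family, its receptors and STAT3, which lie in the same pathway as Osmr, Il6 rose at 8 h (0.60, adjusted p = 2.06e-05) at a mean level of 4.08, and no other passed at any of the 4 times. Stat3 had its lowest p at 72 h (0.22, adjusted p = 0.393). Of 29 further astrocyte identity genes, Fabp7, a fatty acid binding protein gene of astrocytes and radial glia, fell at 0 h (-0.54, adjusted p = 0.000291) and 8 h (-0.62, 1.97e-05) and no other was called. All 29 were higher in CIE mice at 7 d with all mice (median 0.16), beside 61.3% of all genes. Without the 2, 24 of 29 were higher (median 0.076), and the share of all genes there was not counted. None of the 29 was called at 7 d in either fit. Markers of microglia (8 of 9, median 0.18) and oligodendrocytes (8 of 8, 0.14) were likewise mostly higher without the 2. Those of hippocampal neurons (3 of 8, -0.26) and blood cells (2 of 5, -0.0090) were not.

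Genes of glutamate and ammonia handling (13), aquaporin-4 anchoring and endfeet (11), other intermediate filaments and linkers (11), S100 proteins and annexin A2 (11) and relatives of lipocalin-2 and serpins (5) had no called gene at any time. Slc7a11, the cystine-glutamate exchanger gene, came closest, with 0.48 at 8 h (limma adjusted p = 0.0103) and 0.49 at 7 d (0.0127, and 0.39 with 0.141 without the 2 mice). Synm, an intermediate filament gene, was 0.65 lower at 72 h (0.0502). Of 17 genes of CD44 ligands and matrix, the proteoglycan gene Acan rose at 0 h (0.56, 0.00831) and the link protein gene Hapln1 rose at 7 d (0.64, 0.0085), the latter not without the 2 mice (0.205).

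**Figure D5:**
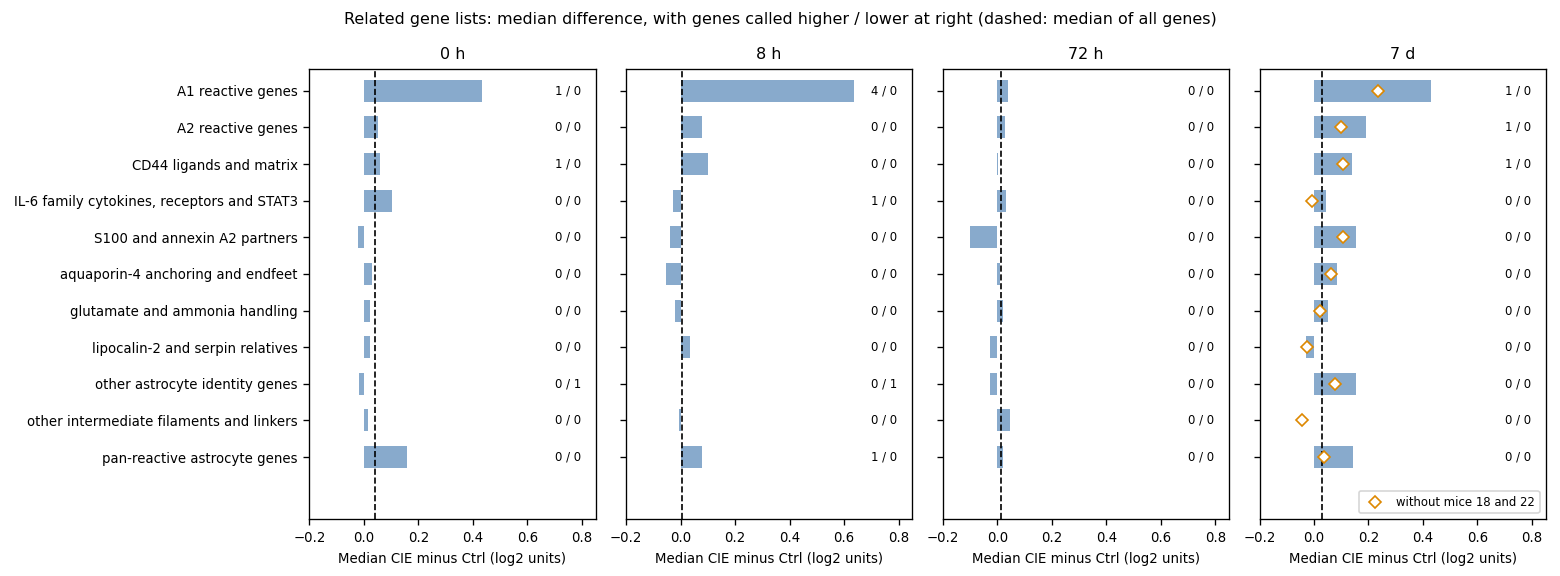
Median CIE minus Ctrl difference in log2 units of the measured genes in 11 related lists at each time, with the number of genes called higher and lower at the right and the median of all genes as a dashed line. Orange diamonds at 7 d leave out Ctrl mice 18 and 22. The A1 list has the longest bar at 8 h, 0.64, with 4 genes called higher.

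Markers of other cells moved with some of these results. At 8 h, Ptprc, a pan-leukocyte gene that microglia also express, rose by 0.63 (limma adjusted p = 0.000125), 1 of 5 blood cell markers. Of 9 microglial markers 0 were called (5 with unadjusted p under 0.05, beside 18.4% of all genes), with a median difference of 0.22, and their mean level was 9.33 to 9.54 in Ctrl and 9.35 to 9.70 in CIE mice. At 0 h, Otx2, a choroid plexus gene, fell by 1.21 (0.00738). At 7 d, Tmem119 of microglia, Kl of choroid plexus and Ptprc were called with all mice (0.40, 1.05 and 0.66) and not without the 2. At 7 d all 8 hippocampal neuron markers were higher in CIE mice (median 0.72 with all mice and -0.26 without the 2, none called). Among CIE mice at 7 d, mouse 59 had the lowest mean of these 8 markers, 9.65 beside a group median of 10.62. It stayed in the fit without the 2, and a fit without all of these mice was not run. All 7 markers of meninges and fibroblasts were higher in both fits (median 0.66 and 0.45, none called). The mean of the meningeal markers was 6.76 and 6.90 in Ctrl mice 18 and 22, below 7.04 to 8.23 elsewhere. Markers of neurons, oligodendrocytes, their precursors, endothelium, mural cells and ependyma had no call at any of the 4 times with all mice. Without mice 18 and 22, 1 of 8 oligodendrocyte markers was called lower at 0 h, where 1118 of 45037 probe sets were called. The part of these cells in the results for the 10 genes was not tested.

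Mouse by mouse, the 10 genes did not vary as 1 block. After group means were subtracted, 10 of 45 gene pairs had r above 0.5 over 48 arrays, and 8 without mice 18 and 22. Negative r was found in 5 pairs, and in 11 without the 2, where Serpina3n and Aqp4 were lowest (-0.36). These correlations share arrays and tissue pieces and are given as a description. Gfap and Vim, the filament genes, had r = 0.68 with all arrays and 0.74 without the 2 mice, and Vim and Aqp4 had 0.72 and 0.70. For Gfap and Aqp4, r was 0.81 and 0.62. Over 18192 other genes, those most like Vim were Myl9 (r = 0.88), Srgn (0.87) and Id3 (0.86), and the same 3 led without mice 18 and 22. Aqp4 was most like Aldh1a1 (0.89, and 0.81 without the 2), Lcat and Fgf13, and Slc1a3 was most like S100b (0.82 and 0.84), Fli1 and Myo10. Serpina3n was most like Kcnab2 (0.89 and 0.84), Nbl1 and Arhgef17, and Osmr was most like Msx1 (0.86 and 0.83), Coro2b and Fam163a. For Gfap the order rested on the 2 mice: Thrsp (0.90), Hsd11b1 (0.89) and Mcur1 (0.86) led with all arrays, and Vamp8 (0.79), 2810459M11Rik (0.78) and Pdpn (0.77) without them. S100a10 was most like Itga4 (0.83), Arhgef7 and Ralb. The highest r was lower for Cd44 (Vamp8, 0.66, then Aqp4 and Lcat) and Slc1a2 (Adap2, 0.65, then Klf12 and Cx3cr1). It was lowest for Lcn2 (Naaladl1, 0.54, then Gm8369 and Exosc10).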

How the data were processed

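The deposited log2 expression values of 48 arrays were used as given. Per the labels and methods, the authors made them by robust multi-array averaging and quantile normalization within batches, a further quantile normalization and ComBat, with no software versions in the sources used here. Each of 45037 probe sets was fitted with limma 3.58.1 in R 4.3.3 on 8 group means, without a block. P-values were adjusted by Benjamini-Hochberg across the 45037 probe sets, comparison by comparison, and called at 0.01 or less, which was also the study's level. No filter was applied. Hybridization sets were inferred from values equal within 1e-08, and arrays that shared at least 5 such values were joined. They held 47 arrays in 6 sets, and Ctrl mouse 2 at 0 h was in none. RMA and ComBat reduce differences between batches and can compress differences between groups. The number of mice limits precision. The members and lists were chosen with earlier results of these data known. All 10 genes were described in every comparison. From each list the called genes were named, up to 4 with the smallest p, or the gene with the smallest p where it came close. Of 228 listed genes, 206 were measured. The 3 genes most like each member were named by Pearson r. The fit was tested on simulated data. Alternatives are given in the closing section.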

Additional observations from a re-analysis of the deposited data

Results flagged for a closer look

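Among the 80 groups of 6 mice (10 genes in 8 groups), 7 had 1 mouse set apart from the other 5 by a gap above Dixon's 95% critical value, and chance alone gives about 1 in 20. Gfap was lowest in Ctrl mouse 56 at 0 h, at 10.48, against 10.95 for the next mouse. Serpina3n was lowest in Ctrl mouse 66 at 8 h, at 6.99, against 7.80, which enlarged the Serpina3n difference at 8 h. Serpina3n was highest in CIE mouse 59 at 7 d, at 8.50, against 8.14. Aqp4 was lowest in Ctrl mouse 24 at 72 h, at 11.07, against 11.57. CIE mouse 41 at 8 h was lowest for Aqp4, at 11.11 against 11.27, and for Slc1a2, at 13.31 against 13.46. Slc1a3 was highest in CIE mouse 35 at 72 h, at 11.65, against 11.53. Ctrl mice 18 and 22 at 7 d were not among the 7, since each lay near the other.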

How the results depend on the processing

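The labels gave no pairing of mice, because each mouse had its own number and no number was shared between groups. The hybridization sets, inferred from the values and not from the labels, served as a block instead. The number of probe sets called in the same fit, out of 45037 (22518 without the dimmest probe sets), gives the scale. At 8 h it was 967 in the main fit, 666 with the block, 499 in the compared groups alone and 1022 without the dimmest. At 7 d it was 604, 250, 1 and 490 in that order. It was 2606 at 7 d at a rate of 0.05 and 11 without mice 18 and 22. Values below are the number of the 10 genes called. At 8 h it was 2, and it was 1 with the hybridization sets as a block, 1 with the block and without Ctrl mice 18 and 22, 1 without the dimmest probe sets (which removed Lcn2 and Cd44), 1 with the mean over a gene's probe sets, 0 in a fit of the compared groups alone and 0 to 2 leaving out 1 mouse. At 7 d it was 1, and it was 0 without mice 18 and 22, 0 with the block with or without them, 0 in the compared groups alone, 0 with the mean over probe sets, 2 at a rate of 0.05, 2 without the dimmest probe sets and 0 to 2 leaving out 1 mouse. In the F test it was 4, and it was 1 without mice 18 and 22, 0 with the block with or without them, 2 with the mean over probe sets and 1 to 4 leaving out 1 mouse. For the average it was 2, and it was 0 without mice 18 and 22, 0 with the block with or without them, 1 with 1 probe set per gene, 1 after a further quantile normalization, 4 at a rate of 0.05 and 1 to 2 leaving out 1 mouse. In Ctrl mice at 72 h and at 7 d against 0 h it was 0, and it was 1 at a rate of 0.05 for both, and 0 to 1 at 7 d leaving out 1 mouse. In CIE mice at 8 h against 0 h it was 1, and it was 2 at a rate of 0.05 and with array weights, 0 with the block and without mice 18 and 22, 0 with the block alone, 0 in the compared groups alone, 0 without the dimmest probe sets and 0 to 1 leaving out 1 mouse. In CIE mice at 72 h against 0 h it was 0, and it was 1 without mice 18 and 22, 1 with the block in addition, 1 at a rate of 0.05 and 1 with array weights. In CIE mice at 7 d against 0 h it was 1, and it was 2 without mice 18 and 22, 2 with the block in addition, 2 with 1 probe set per gene, 2 at a rate of 0.05, 2 with array weights, 2 without the dimmest probe sets, 0 with the mean over probe sets and 0 to 2 leaving out 1 mouse. The fits without mice 18 and 22 were chosen after seeing the data. Of all probe sets, the F test called 3453 in the main fit, 2853 without these mice and 2045 with the block. The average called 4652, 4103 and 3564 in that order, and 8105 at a rate of 0.05. In CIE mice against 0 h, 1290 were called at 8 h, 510 at 72 h and 357 at 7 d. At a rate of 0.05 these were 3368, 1407 and 770, and with array weights 3314, 1128 and 725. In Ctrl mice, 1721 passed at 72 h and 326 at 7 d at a rate of 0.05. With the mean over its probe sets, Slc1a2 turned from 0.20 to -0.17 at 8 h and from 0.082 to -0.32 on average. In single genes no other called value changed sign in the alternatives run on all mice or without mice 18 and 22. The cause of these changes was not tested. Exact tests with labels exchanged within sets cannot go below p = 0.03125.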
